A study of Mus musculus with 12 samples.

Results

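The transcripts of the mouse mitochondrial genome were studied in ileum RNA sequencing libraries. They were taken as the 37 genes whose mouse symbol begins with mt-, out of 54838 genes with a count. Membership rests on the symbol alone and not on a measured value. The set itself was chosen with earlier results of these data known. They comprise 13 mRNAs, 2 rRNAs and 22 tRNAs. The study asked how 7 days of zinc in the drinking water and an injection of dexamethasone (Dex), a synthetic glucocorticoid, alter gene expression in the ileum, alone and combined. Female C57BL/6J mice aged 8 to 14 weeks, kept free of specific pathogens, drank normal water or 25 mM ZnSO4 and were injected intraperitoneally with 200 µg Dex in PBS or with PBS alone, and the ileum was taken 2 h later. This gave 4 groups of 3 mice each, named water + PBS, water + Dex, ZnSO4 + PBS and ZnSO4 + Dex. The samples were pieces of whole ileum, so that fewer cells of a type and less RNA per cell cannot be told apart.

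Mitochondrial DNA is a small circle present in many copies per cell. It is transcribed from both strands by the RNA polymerase Polrmt, with Tfam and Tfb2m, into long precursors from which the tRNAs are cut out, and this releases the mRNAs and rRNAs between them. The mRNAs encode core subunits of complex I, complex III, complex IV and the ATP synthase, the machines of oxidative phosphorylation, while all other subunits and every protein of the mitochondrial ribosome are encoded in the nucleus. The intestinal epithelium uses oxidative phosphorylation to drive nutrient uptake and renewal.

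Several mitochondrial genes have copies in the nuclear genome, and reads with more than 1 position were not counted. The sequences come from the GENCODE M21 transcripts. Positions are on GRCm38, and all mitochondrial positions lie in the exon of a gene without introns. The first 90 bases of mt-Co2 (a core subunit of complex IV) and of its nuclear copy Gm28661 are shown because they differ at 0 of 90 positions, as they do over all 681 aligned bases. A stretch of mt-Cytb (the mitochondrial subunit of complex III) and of its nearest annotated nuclear match, Gm11410, are shown as the opposite case, with the 5 of 90 differing bases in capitals. The whole of mt-Atp8 (a small ATP synthase subunit) is shown with its last 43 bases in capitals, since these also belong to mt-Atp6.
mt-Co2, chrM:7013-7102, plus strand: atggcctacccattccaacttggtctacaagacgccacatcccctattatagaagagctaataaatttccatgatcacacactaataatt
Gm28661, chr1:24615476-24615565, minus strand: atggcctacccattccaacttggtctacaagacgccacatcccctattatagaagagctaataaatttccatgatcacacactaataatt
mt-Cytb, chrM:14146-14235, plus strand: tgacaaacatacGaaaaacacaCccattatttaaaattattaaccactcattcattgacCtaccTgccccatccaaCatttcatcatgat
Gm11410, chr4:80003990-80004079, plus strand: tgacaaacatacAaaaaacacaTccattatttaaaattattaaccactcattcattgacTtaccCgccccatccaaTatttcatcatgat
mt-Atp8, chrM:7766-7969, plus strand: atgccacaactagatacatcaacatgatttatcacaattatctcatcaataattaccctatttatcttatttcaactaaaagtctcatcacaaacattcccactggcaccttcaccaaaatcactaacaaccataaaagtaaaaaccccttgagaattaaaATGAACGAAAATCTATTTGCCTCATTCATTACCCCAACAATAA

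The read level per length separated the mRNAs by this property. Of the 13 mRNAs, 5 (mt-Co2, mt-Co3, mt-Atp6, mt-Nd3 and mt-Nd4l) had over 95% of their 50-base stretches in an annotated nuclear transcript, and they lay between 4.13 and 80.0 CPM (counts scaled to a fixed library total) per kb, as a mean over the 12 libraries. The other mRNAs without mt-Atp8, 7 in number, lay between 1668 and 8437 CPM per kb. They include mt-Co1 and mt-Nd4, of whose stretches 51.1% and 62.2% were shared. mt-Atp8, with 0% shared at 50 bases, had 4.18 CPM per kb. This 0% is a lower bound, since only annotated transcripts were searched. The nearest mRNA genes on either side, mt-Co2 and mt-Atp6, have copies on chromosome 1. These are Gm28661 (24614885 to 24615565) and Gm10925 (24613974 to 24614651). Sequence between these copies was not searched outside annotated transcripts. Since reads with more than 1 position were left out, the levels of the 5 genes with copies are not read as abundance here. Why mt-Atp8 is low was not tested.

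**Figure D1:**
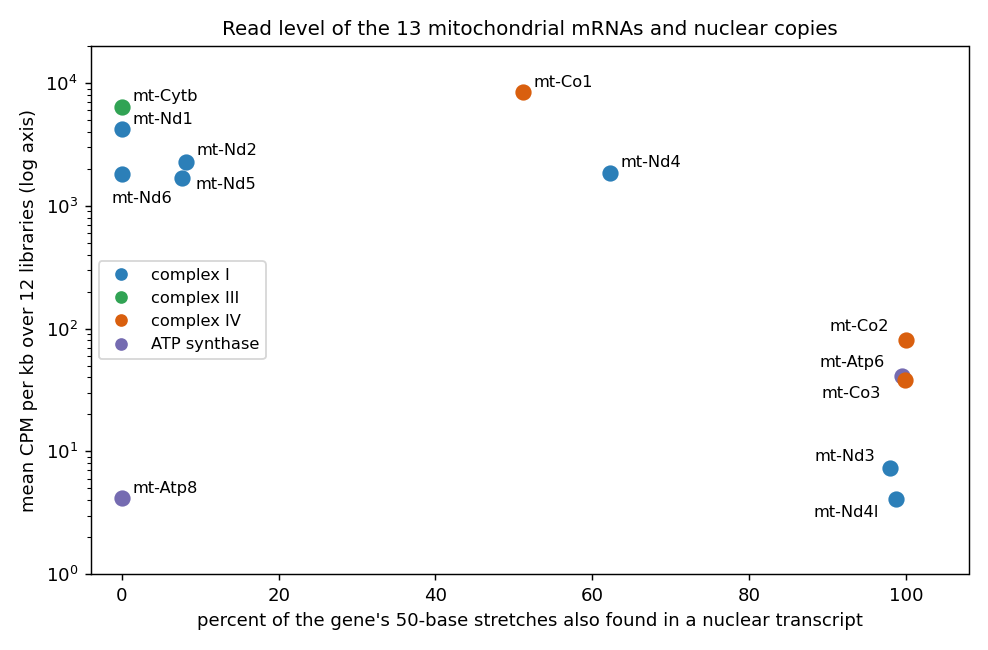
Each point is 1 of the 13 mitochondrial mRNAs, coloured by the complex it belongs to. The horizontal axis gives the percent of its 50-base stretches also found in an annotated nuclear transcript and the vertical axis its mean level in CPM per kb over 12 libraries on a log scale. The 5 genes with over 95% shared lie at 80.0 CPM per kb or below, and mt-Atp8 lies at 4.18 with 0% shared. The percents are lower bounds, since copies outside annotated transcripts were not searched.

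In total, 11 nuclear genes matched a mitochondrial gene over at least 100 bases at 95% identity or more, all of them pseudogenes. On chromosome 1, Gm10925 (the copy of mt-Atp6) held 6210 reads over all libraries where mt-Atp6 itself held 3843, with 0 differences over 678 aligned bases. Gm28437 held 4596 reads where mt-Co3 held 4067. Reads of these pairs that cover an identical stretch cannot be assigned, and values of mt-Co2, mt-Co3, mt-Atp6, mt-Nd3 and mt-Nd4l are uncertain for that reason.

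Over all libraries, complex IV mRNAs took 36.5% of the mitochondrial reads, complex I mRNAs 36.0%, mt-Cytb 20.5%, the rRNAs 6.86% and the ATP synthase mRNAs 0.081%. Of the 1789497 complex IV reads, mt-Co1 held 1777966, mt-Co2 7464 and mt-Co3 4067. Since reads with more than 1 position were left out, these shares are not read as the abundance of each complex. mt-Co1, the catalytic core of complex IV, had the highest mean CPM of all 54838 genes (rank 1), mt-Cytb had rank 5 and mt-Nd1 rank 14. Within the mitochondrial reads the share of mt-Co1 lay between 34.7% and 38.1% in the water libraries and between 34.9% and 37.9% in the ZnSO4 libraries.

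The tRNAs were almost absent from the libraries. Of 22 tRNA genes, 59 to 75 bases long, 15 had 0 reads in every library, which allows up to 3 reads per library, and 5 had at most 3 reads in any library. The other 2, mt-Tc and mt-Tp (the tRNAs for cysteine and proline), had 37 to 106 and 41 to 70 reads. Both are annotated on the minus strand, with 6 other tRNAs and mt-Nd6, and their sequences are shown because no other tRNA could be tested.
mt-Tc, chrM:5192-5257, minus strand: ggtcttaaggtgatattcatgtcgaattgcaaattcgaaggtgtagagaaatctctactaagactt
mt-Tp, chrM:15356-15422, minus strand: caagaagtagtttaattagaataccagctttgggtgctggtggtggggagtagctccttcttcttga
Since the strand setting of the counting is not given, these reads cannot be told from reads of the opposite strand. A list of 12 nuclear RNAs without a poly(A) tail was likewise low, with 9 of 12 at 0 in every library and a summed level of 1.06 to 3.13 CPM.

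Library totals lay between 10760132 and 11827487 counts, with a median of 11388606. Known targets of the treatments were checked first. With ZnSO4, averaged over both injections, the metallothionein Mt1 rose (LFC 4.60, adjusted p = 2.63e-07) and the zinc importer Slc39a4 fell (LFC -3.22, adjusted p = 3.93e-08), where LFC is the log2 fold change. The zinc exporter gene Slc30a1 did not pass the test with ZnSO4 (LFC 0.01, adjusted p = 0.976). With Dex, averaged over both drinks, the glucocorticoid receptor target Fkbp5 rose (LFC 3.36, adjusted p = 3.91e-09). All 9 enterocyte markers had reads, at a summed level of 14180 to 33470 CPM per library. A filter on low counts left 15938 genes for testing, among them 17 mitochondrial genes: the 13 mRNAs, both rRNAs, mt-Tc and mt-Tp. Fold changes are given for the 10 mRNAs and 2 rRNAs with a mean of over 100 reads a library. The other 5 are given by counts.

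ZnSO4 was followed by a larger share of mitochondrial reads. In water + PBS mice 2.96%, 2.87% and 3.09% of all counts fell on mitochondrial genes, and in ZnSO4 + PBS mice 4.06%, 3.72% and 4.09%, a ratio of group means of 1.33. The lowest ZnSO4 library stood above the highest water library. In water + Dex mice the shares were 3.13%, 3.47% and 3.10%, and in ZnSO4 + Dex mice 3.93%, 4.46% and 4.20%, a ratio of 1.30, again without overlap. Counting error was small beside these differences, with an exact binomial 95% interval of 2.95% to 2.97% for water + PBS replicate 1, which covers counting error only. The share has no test because it sums over the chosen genes. Against a library size scaled by TMM (trimmed mean of M-values) the ZnSO4 libraries still stood above the water libraries within each injection, but ZnSO4 + PBS replicate 2 (3.45%) fell below water + Dex replicate 2 (3.74%).

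The larger share lay in the mRNAs and not in the rRNAs. The 13 mRNAs together took 2.62% to 3.22% of counts in the 6 water libraries and 3.49% to 4.23% in the 6 ZnSO4 libraries. The 2 rRNAs took 0.224% to 0.289% in water libraries and 0.217% to 0.263% in ZnSO4 libraries, and these ranges overlapped. The ratio of mRNA to rRNA reads, which does not depend on library scaling, was 12.2, 10.5 and 9.70 in water + PBS mice and 17.7, 15.2 and 16.1 in ZnSO4 + PBS mice. It was 11.02, 13.1 and 10.4 in water + Dex mice and 13.95, 18.1 and 17.2 in ZnSO4 + Dex mice. All 6 ZnSO4 libraries therefore had a higher ratio than all 6 water libraries, as a description with no test. The same held for single mRNAs against mt-Rnr2, with 3.33 to 4.62 reads of mt-Cytb per read of mt-Rnr2 in water and 5.33 to 6.97 in ZnSO4 libraries, and 1.79 to 2.65 reads of mt-Nd1 in water and 2.71 to 3.71 in ZnSO4 libraries. Ratios within the mRNAs or within the rRNAs overlapped where they were taken. There were 0.278 to 0.331 reads of mt-Nd6 per read of mt-Nd5, its neighbour on the opposite strand, in water libraries and 0.283 to 0.321 in ZnSO4 libraries. These genes overlap by 14 bases, where reads cannot be told apart without strand. Since the strand setting of the counting is not given, mt-Nd6 reads along the whole gene cannot be told from reads of the opposite strand. The ratio of mt-Rnr1 to mt-Rnr2 reads was 0.621 to 0.696 in water libraries and 0.633 to 0.716 in ZnSO4 libraries.

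**Figure D2:**
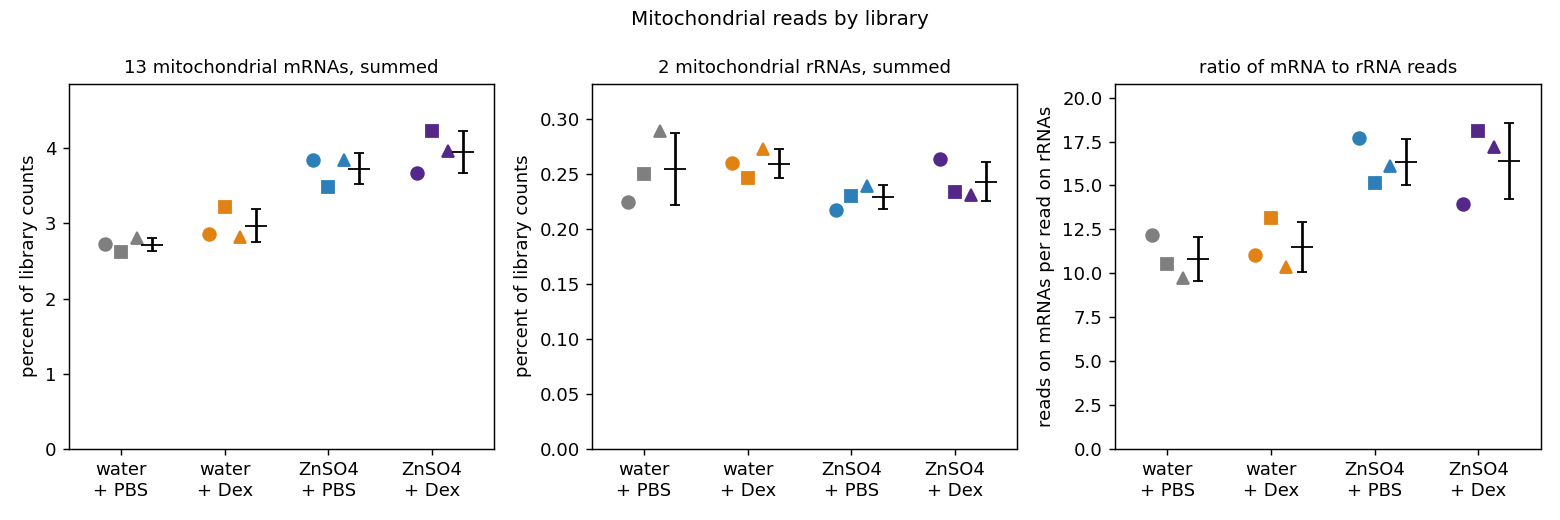
The panels give, for each of the 12 libraries, the percent of counts on the 13 mitochondrial mRNAs, the percent on the 2 mitochondrial rRNAs and the ratio of mRNA to rRNA reads. Circles, squares and triangles are replicates 1, 2 and 3, and bars are the mean ± SD of 3 mice. The ZnSO4 libraries stand above the water libraries for the mRNAs (3.49% to 4.23% against 2.62% to 3.22%) and the ratio, and the groups overlap for the rRNAs.

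In PBS mice, 2 of the 17 tested genes passed the test with ZnSO4, both higher, against 4.66% of all genes called, 2.11% higher and 2.54% lower. Both, mt-Nd6 and mt-Nd4, encode complex I subunits. As the strand setting of the counting is not given, mt-Nd6 reads cannot be told from reads of the opposite strand. The normalised counts of mt-Nd6, the only protein-coding gene on its strand, were 8219, 8522.5 and 7430.4 in water + PBS mice and 14327, 10956 and 11164 in ZnSO4 + PBS mice. These groups did not overlap, and the LFC was 0.59 ± 0.14 (SE, adjusted p = 0.0415). For mt-Nd4 they were 23115, 22105 and 22892 against 33356, 28774 and 33010.0, again without overlap (LFC 0.48 ± 0.12, adjusted p = 0.0452).

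The other mRNAs did not pass the test in PBS mice, and all 10 mRNAs with over 100 reads had an LFC above 0 (48% of all genes), from 0.31 for mt-Co1 to 0.59 for mt-Nd6, with a median of 0.43 beside -0.01 over all genes. Without overlap between groups, 12 of the 17 genes were higher (12.4% of all genes) and 1, mt-Rnr1, was lower (12.9%). At an unadjusted p under 0.05 there were 10 of 17, against 19.8% of all genes. The complex I genes mt-Nd2 (LFC 0.43, adjusted p = 0.0524) and mt-Nd5 (LFC 0.52, adjusted p = 0.0736) lay near the threshold. mt-Cytb went from 66329 ± 3693 to 89248 ± 7561 (SD, n = 3; LFC 0.43, adjusted p = 0.161). The calls changed on leaving out single libraries, and the number over all genes called in those fits is not given here. Fewer mitochondrial calls there cannot be told from fewer calls in general. Leaving out any 1 water + PBS library, water + Dex replicate 1 or 3, or ZnSO4 + PBS replicate 1 or 3 left 0 genes called. Without water + Dex replicate 2 or ZnSO4 + PBS replicate 2 there were 3, without ZnSO4 + Dex replicate 1 there was 1 and without ZnSO4 + Dex replicate 2 there were 5, and DESeq2, another test of counts, called 9 (6.92% of all genes it tested).

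Averaged over PBS and Dex mice, ZnSO4 raised 6 of the 17 genes and lowered 0, against 12.8% of all genes called, 6.24% higher and 6.52% lower. At an unadjusted p under 0.05 there were 12 of 17, against 28.5% of all genes. The complex I genes mt-Nd4 (LFC 0.42 ± 0.09, adjusted p = 0.00779), mt-Nd2 (0.36 ± 0.08, adjusted p = 0.0126) and mt-Nd6 (0.36 ± 0.10, adjusted p = 0.0411) rose. So did mt-Cytb of complex III (0.40 ± 0.11, adjusted p = 0.0383), mt-Co3 of complex IV (0.31 ± 0.09, adjusted p = 0.0351) and mt-Atp6 of the ATP synthase (0.27 ± 0.07, adjusted p = 0.0294). mt-Co3 and mt-Atp6 are among the genes whose values are uncertain because of nuclear copies. The LFC was above 0 for all 10 mRNAs with over 100 reads (49.1% of all genes), with a median of 0.34 beside -0.00459 over all genes, and this direction held under every scaling tried. mt-Co1, the most abundant gene, had an LFC of 0.31 ± 0.13 that missed the threshold (adjusted p = 0.149). mt-Nd2 and mt-Nd4 were called under 21 of 24 alternative fits. The exceptions were those with smooth muscle, T cell or goblet cell markers as a covariate (for mt-Nd4 an LFC of 0.41, 0.34 and 0.21). Of these, the T cell and goblet cell fits were chosen after seeing the data. The other called genes were less stable: mt-Atp6 was called under 13 of the 24, mt-Co3 under 11, mt-Nd6 under 10 and mt-Cytb under 9.

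The rRNAs had values on the other side. mt-Rnr1 (12S rRNA of the small ribosomal subunit) had 11403 ± 974 normalised counts in water + PBS, 12314 ± 813 in water + Dex, 10137 ± 409 in ZnSO4 + PBS and 10882 ± 1473 in ZnSO4 + Dex mice. mt-Rnr2 (16S rRNA of the large subunit) had 17304 ± 2340.5, 19321 ± 1005, 14684 ± 650 and 16536 ± 1587. Their averaged LFCs with ZnSO4 were -0.17 ± 0.08 and -0.23 ± 0.09, with adjusted p of 0.188 and 0.105, and neither passed the test. With DESeq2, 11 of 17 genes passed, against 14.1% of all genes it tested, 10 higher and 1 lower, and the lower one was mt-Rnr2 (adjusted p = 0.0286). The averaged count was 2 or 3 without any 1 of the water + PBS libraries, water + Dex replicate 1 or 3, or ZnSO4 + PBS replicate 1 or 3, 4 without ZnSO4 + Dex replicate 1 or 3, and 9 without ZnSO4 + PBS replicate 2. The number over all genes called in these fits is not given, so these changes are not read as particular to the mitochondrial genes.

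In Dex mice the ZnSO4 comparison alone called 0 of 17 genes, against 4.37% of all genes (1.83% higher and 2.54% lower), with 4 of 17 at an unadjusted p under 0.05 (19.1% of all genes) and 4 called by DESeq2 (6.44%). The 10 mRNAs with over 100 reads had LFCs of 0.11 (mt-Co2) to 0.37 (mt-Cytb), and 51.1% of all genes had an LFC above 0. Without overlap, 4 were higher (12.7% of all genes), namely mt-Nd2, mt-Nd4, mt-Co1 and mt-Cytb, and mt-Rnr2 was lower (13.2%). mt-Cytb stood at 72494, 85039 and 75574 in water + Dex mice and at 96000.4, 103530.0 and 102694 in ZnSO4 + Dex mice (LFC 0.37 ± 0.16, adjusted p = 0.228). mt-Nd6, at 9381, 12567 and 10572 against 12177, 10340.4 and 12858, overlapped (LFC 0.12 ± 0.14, adjusted p = 0.697).

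**Figure D3:**
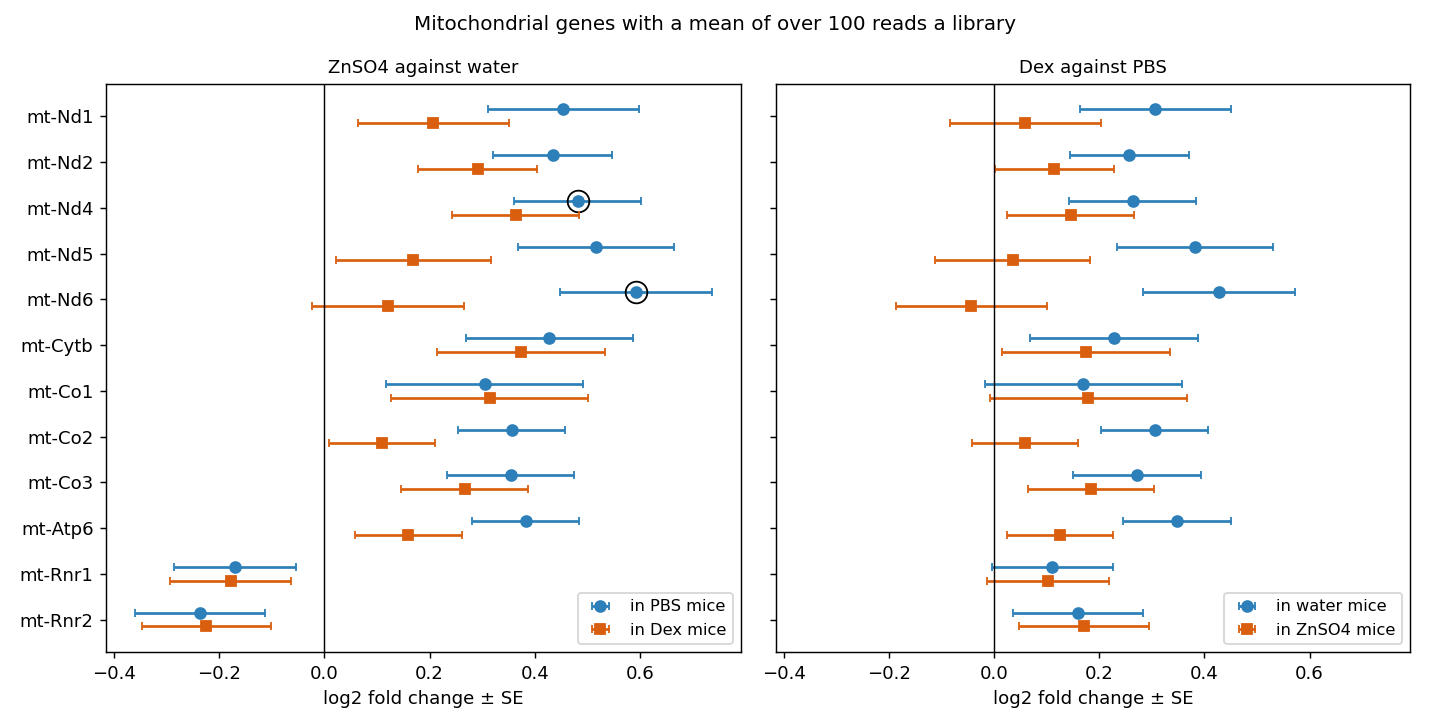
The horizontal axis gives the LFC ± SE of the 10 mRNAs and 2 rRNAs with a mean of over 100 reads a library, for ZnSO4 against water in PBS and in Dex mice (left) and for Dex against PBS in water and in ZnSO4 mice (right). Ringed points passed the test (mt-Nd4 and mt-Nd6, ZnSO4 in PBS mice). The mRNAs lie above 0 and the rRNAs below 0 for ZnSO4, while for Dex both lie near or above 0.

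Dex in water mice called 0 of 17 genes, against 9.93% of all genes (5.41% higher and 4.51% lower), with 7 of 17 at an unadjusted p under 0.05 (22.7% of all genes) and 5 called by DESeq2 (10.2%). Without overlap between groups, 12 of the 17 were higher (15.2% of all genes) and 0 lower (14.5%). mt-Atp6 came nearest, with 234, 257 and 278 normalised counts in water + PBS and 311, 367 and 301 in water + Dex mice (LFC 0.35 ± 0.10, adjusted p = 0.0534). mt-Nd6 had an LFC of 0.43 ± 0.14 (adjusted p = 0.0924) and mt-Co1 of 0.17 ± 0.19 (adjusted p = 0.649). The mitochondrial share was 2.97% ± 0.11 in water + PBS and 3.23% ± 0.21 in water + Dex mice (SD, n = 3), a ratio of 1.09, and the groups did not overlap, with the highest of the former at 3.09% and the lowest of the latter at 3.10%. This comparison and ZnSO4 in PBS mice share the water + PBS libraries.

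In ZnSO4 mice Dex called 0 of 17 genes, against 13.7% of all genes (6.65% higher and 7.08% lower), with 0 at an unadjusted p under 0.05 (26.3% of all genes) and 0 called by DESeq2 (13.4%). Without overlap between groups, 1 gene was higher (14.2% of all genes), namely mt-Cytb, and 1 was lower (14.9%), namely mt-Nd3. The 10 mRNAs with over 100 reads had LFCs of -0.04 (mt-Nd6) to 0.19 (mt-Co3), and the shares, 3.96% ± 0.21 with PBS and 4.20% ± 0.27 with Dex, overlapped. Averaged over both drinks, Dex called 1 gene of 17, mt-Atp6 (LFC 0.24 ± 0.07, adjusted p = 0.0357), against 21.5% of all genes called, 10.4% higher and 11.2% lower. At an unadjusted p under 0.05 there were 6 of 17, against 33.4% of all genes, and the 10 mRNAs with over 100 reads all had an LFC above 0 (49.8% of all genes). DESeq2 called 5, against 18.1% of all genes it tested. This call was lost without water + PBS replicate 1 or 2, water + Dex replicate 2, ZnSO4 + PBS replicate 1 or 2, or ZnSO4 + Dex replicate 3, while 3 genes were called without ZnSO4 + Dex replicate 2 and 2 without water + PBS replicate 3. The number over all genes called in these fits is not given, so a lost call cannot be told from fewer calls in general. mt-Atp6 is also among the genes whose values are uncertain because of nuclear copies. The rRNAs had averaged LFCs of 0.11 (mt-Rnr1) and 0.17 (mt-Rnr2) with Dex, where the 10 mRNAs had a median of 0.20.

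A test of whether Dex acted differently in ZnSO4 and in water mice called 0 of 17 genes and 0% of all genes. At an unadjusted p under 0.05 there were 2, mt-Nd6 and mt-Nd3, against 4.98% of all genes, and the adjusted p of both was 0.952. DESeq2 called 0 of 17 and 0% of all genes, and had 3 of 17 at an unadjusted p under 0.05, against 2.06% of all genes with a p there. mt-Nd3 had 18 to 41 raw reads per library.

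Of the 5 low-count members, 3 had groups that did not overlap in some comparison. In any single comparison 12.4% to 15.2% of all genes were higher without overlap and 12.9% to 14.9% lower. Each member was looked at in several comparisons, so this count is not read as a result about them. mt-Atp8 had 6 to 16 raw reads, mt-Nd4l 8 to 21, and their groups overlapped in the ZnSO4 and the Dex comparisons. mt-Nd3 had 17.5, 24.1 and 24.7 normalised counts in water + PBS and 35.8, 37.5 and 35.2 in ZnSO4 + PBS mice, without overlap, and 23.4, 29.2 and 32.4 in water + Dex against 34.2, 29.8 and 21.4 in ZnSO4 + Dex mice, with overlap. mt-Tc was likewise higher without overlap in ZnSO4 + PBS mice (99.9, 58.6 and 58.4) than in water + PBS mice (45.7, 45.2 and 48.5), and it overlapped in Dex mice. In water + Dex mice it stood at 79.2, 65.9 and 63.8, again without overlap with water + PBS mice. mt-Tp had 39.9, 45.2 and 54.2 normalised counts in water + PBS and 61.3, 68.0 and 61.6 in water + Dex mice, without overlap, and 61.3, 49.4 and 58.4 in ZnSO4 + PBS and 66.4, 56.7 and 74.8 in ZnSO4 + Dex mice, with overlap. None of these passed the test.

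Nuclear genes of the respiratory chain and ATP synthase had values centred near 0 under ZnSO4. They were picked by symbol and hold assembly factors (such as Ndufaf1) and pseudogenes (such as Uqcrh-ps1) besides subunits. Of 99 tested, 0 rose and 1 fell, averaged over injections (6.24% and 6.52% of all genes). The gene that fell was the complex I subunit Ndufs1 (LFC -0.25, adjusted p = 0.0285), and the median LFC of the 99 was -0.04. An LFC above the lowest of the 10 mitochondrial mRNAs was found for 4 of the 99. Under Dex 6 of 99 rose and 0 fell, with a median of 0.09, where 10.4% of all genes rose and 11.2% fell, so that the called share was not above that of all genes. The called subunits include the complex I subunits Ndufc2 (0.52), Ndufa7 (0.23), Ndufa10 (0.20) and Ndufs3 (0.19) and the ATP synthase subunit Atp5d (0.20). Of 78 mitochondrial ribosomal proteins, 0 rose and 2 fell with ZnSO4 (Mrps5 at -0.29 and Mrps2 at -0.27), and 2 rose and 2 fell with Dex.

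**Figure D4:**
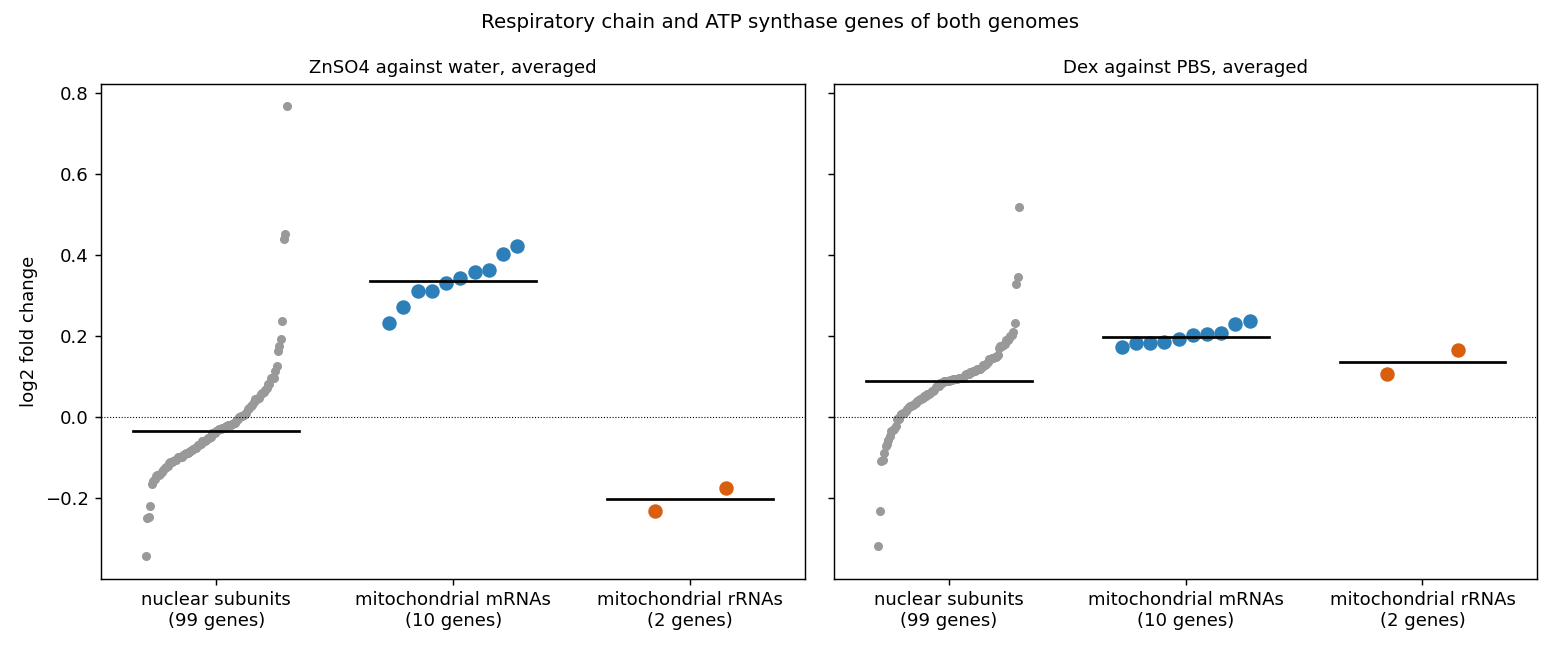
The vertical axis gives the averaged LFC for ZnSO4 (left) and Dex (right). Points are 99 nuclear genes of the respiratory chain and ATP synthase, the 10 mitochondrial mRNAs with over 100 reads and the 2 rRNAs. They stand in order of value within each column, and lines are medians. The column labelled nuclear subunits also holds assembly factors and pseudogenes. For ZnSO4 the mitochondrial mRNAs have a median of 0.34 where the nuclear genes have -0.04. For Dex the medians are 0.20 and 0.09.

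Over all genes, the averaged comparisons called 6.24% higher and 6.52% lower with ZnSO4, and 10.4% higher and 11.2% lower with Dex. Among 18 tested genes of mitochondrial transcription and its control, 1 rose with ZnSO4, a share not above that of all genes. This was Ppargc1a, a coactivator known to drive mitochondrial biogenesis, with 233, 220 and 197 normalised counts in water + PBS, 343, 376 and 387 in ZnSO4 + PBS, 415, 356 and 469 in water + Dex, and 606, 436 and 536 in ZnSO4 + Dex mice. The lowest values were those of water + PBS mice, without overlap with any other group. The averaged LFC was 0.56 with ZnSO4 (adjusted p = 0.0029) and 0.72 with Dex (adjusted p = 0.000183). The related coactivator Ppargc1b (-0.64) and the termination factor family member Mterf2 (-0.69) fell with Dex. The transcription machinery itself did not pass in either comparison, with averaged LFCs for ZnSO4 of 0.01 for Polrmt, -0.08 for Tfam, 0.13 for Tfb2m and -0.22 for the elongation factor Tefm.

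The calls in the next lists stand beside 6.24% of all genes higher and 6.52% lower with averaged ZnSO4, and 10.4% and 11.2% with averaged Dex. Of 19 tested genes for processing, stability and decay of mitochondrial RNA, 1 rose with ZnSO4. This was Grsf1 (0.20, adjusted p = 0.0427), which acts in RNA granules of the mitochondrion. The RNA-binding protein gene Fastkd2 (-0.23, adjusted p = 0.049) and Pnpt1 (-0.29, adjusted p = 0.00541), the polynucleotide phosphorylase that degrades mitochondrial RNA, fell. With Dex, Lrpprc, which holds mitochondrial mRNAs stable (0.32, adjusted p = 0.00825), and Fastkd3 (0.33, adjusted p = 0.0168) rose and Ptcd2 fell (-0.21, adjusted p = 0.0397). The mitochondrial poly(A) polymerase gene Mtpap had averaged LFCs of 0.02 with ZnSO4 and 0.07 with Dex, neither called. Slirp, the partner of Lrpprc, held 2 reads in all libraries and was not tested. Among 16 genes of mitochondrial DNA replication and nucleotide supply, the pyrimidine nucleotide carrier gene Slc25a33 (0.80) and the nuclease gene Endog (0.46) rose with ZnSO4. With Dex, Slc25a33 (2.48) and the ribonucleotide reductase subunit Rrm2b (0.37) rose and the carrier Slc25a36 (-0.29) fell.

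The 11 nuclear copies had mostly LFCs above 0, though values of a copy and of the gene it matches did not always go together. With ZnSO4, averaged, 10 of 11 lay above 0 with a median of 0.25, and the copies of mt-Co1, Gm13340 (0.31, adjusted p = 0.0252) and Gm29216 (0.25, adjusted p = 0.0306), were called. With Dex, 11 of 11 lay above 0 with a median of 0.22, and Gm10925 was called (0.23, adjusted p = 0.0286). The lowest copy with averaged ZnSO4 was Gm28438, the copy of mt-Nd3, with -0.11 (0.23 with Dex), not called and with 30 to 53 reads a library. In PBS mice alone it had 37.4 ± 1.6 normalised counts with water and 36.9 ± 11.3 with ZnSO4 (mean ± SD). mt-Nd3 itself stood higher in ZnSO4 + PBS than in water + PBS mice without overlap, and overlapped in Dex mice. Gm10222, the copy of mt-Nd4l, had 0.34 with ZnSO4 and 0.09 with Dex, where the groups of mt-Nd4l overlapped.

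Markers of several cell types moved with ZnSO4 in the same libraries. All 8 smooth muscle markers had an averaged LFC above 0 (median 0.37, Tagln called), with a summed level of 1908 to 2494 CPM in water and 2208 to 3826 CPM in ZnSO4 libraries. All 6 goblet cell markers did so too (median 0.29, Muc2, Zg16 and Tff3 called), at 12520 to 14960 and 13880 to 18950 CPM. Of 8 T cell markers 0 lay above 0 (median -0.98, 4 called), at 82.6 to 174 and 42.5 to 104 CPM, and of 10 B cell markers 0 did (median -1.08, 0 called), at 22.1 to 715 and 15.5 to 534 CPM. All genes of these 4 lists had reads. Skeletal muscle markers, of which Myh4 had 0 reads in every library, summed to 42.3 to 179 CPM in water and 10.7 to 17.2 CPM in ZnSO4 libraries. This sum followed Acta1 (averaged LFC -4.44, called), while the other tested members Ckm (0.03) and Mylpf (-0.02) were not called. Fits with the mean level of a marker list as a covariate called, for averaged ZnSO4, 3 mitochondrial genes with the B cell list, 0 with smooth muscle, 0 with T cell and 0 with goblet cell markers. The last of these fits called 8 genes in all, where 2034 were called without it. For the fits with B cell, smooth muscle and T cell markers the number over all genes is not given. Fewer mitochondrial calls there cannot be told from fewer calls in general. Of the other lists, 3 of 6 plasma cell and 2 of 6 Paneth cell markers fell with ZnSO4, 1 of 7 stem and dividing cell markers rose, and 0 of 7 macrophage, 0 of 9 enterocyte and 0 of 5 liver markers were called. The summed enterocyte level was uneven in ZnSO4 + Dex mice, at 26570, 14180 and 30820 CPM, and was 28960 to 33470 CPM in water + Dex mice. With Dex the B cell markers had a median of -2.07 (0 of 10 called), 2 of 8 T cell and 2 of 6 plasma cell markers fell, and 1 of 6 goblet cell, 2 of 7 macrophage and 1 of 9 enterocyte markers rose. All 5 liver markers lay above 0 with Dex (median 2.22, 1 called), but the libraries were uneven. Their summed level was 5.78, 10.5 and 394 CPM in water + Dex mice and 9.44 to 55.0 CPM in water + PBS mice. It was 66.5, 237 and 23.4 CPM in ZnSO4 + Dex mice and 8.30 to 14.4 CPM in ZnSO4 + PBS mice. Of 7 stem and dividing cell markers 1 rose and 2 fell with Dex. The Paneth cell (0 of 6), smooth muscle (0 of 8) and skeletal muscle (0 of 3 tested) markers had none called. The part of cell makeup in the mitochondrial values was not tested beyond this.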

How the data were processed

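Ileum RNA of 12 mice was made into stranded TruSeq libraries, sequenced single-end and, per the labels and the study's methods, trimmed (Trimmomatic), mapped to mm10 with HISAT2 2.0.4 and assigned to genes by featureCounts. Reads that mapped to several positions were not counted. The deposited values are raw counts of 54838 Ensembl genes. The strand setting, the annotation release and whether poly(A) RNA was selected are not given in the sources used here. Intervals and limits from 0 reads cover counting error only. Symbols were found for 54723 identifiers. Lengths, positions and sequences came from GENCODE M21 (GRCm38), whose transcripts were searched for stretches shared with mitochondrial genes, so that copies outside annotated transcripts were not searched and the shared percents are lower bounds.

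Counts were tested with edgeR 4.0.16 in R 4.3.3 (limma 3.58.1). Genes were filtered with filterByExpr by group (minimum count 10), which kept 99.83% of counts, scaled by TMM, and fitted with 4 group means in 1 quasi-likelihood model (glmQLFit, glmQLFTest, common biological coefficient of variation 0.191). P-values were adjusted by Benjamini-Hochberg over 15938 genes and called at 0.05. Averaged comparisons are the mean of the simple contrasts of a treatment. For normalised counts, each count was brought to the mean of the TMM-scaled library sizes. The scripts were tested on simulated data. The series calls the mice biological replicates, and nothing says which shared a cage. Replicates of a group differed by more than sampling noise (chi-square per degree of freedom 7.84 to 43.5).

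Every mitochondrial gene was eligible to be named. From each list of other genes, the 5 called genes with the largest LFC in an averaged comparison and a mean CPM of at least 1 were eligible, with 8 fixed genes of mitochondrial transcription and RNA handling. The genes studied and the lists were chosen with earlier results of these data known. DESeq2 1.42.0, other scalings, filters and covariates and leaving out each library were tried as alternatives.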

Additional observations from a re-analysis of the deposited data

How the results depend on the processing

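Scaling, filters and single libraries moved the number of the 17 mitochondrial genes called. The number of all genes called is not given beside each count, and it moved too. For ZnSO4 in PBS mice it was 4.66% of all genes as reported and 6.92% with DESeq2. A change in the counts below is therefore not read as particular to the mitochondrial genes. For ZnSO4 in PBS mice (2), RLE factors gave 1, all genes with at least 1 count 1, at least 10 counts in every library 4, only the groups compared 0 and DESeq2 9. For averaged ZnSO4 (6) DESeq2 gave 11, for averaged Dex (1) all genes with at least 1 count gave 0 and DESeq2 5, for Dex in water mice (0) at least 10 counts in every library gave 1 and DESeq2 5, and for ZnSO4 in Dex mice (0) DESeq2 gave 4. An LFC cut-off of 0.8 left 0 for ZnSO4 in PBS mice, 0 for averaged ZnSO4 and 0 for averaged Dex. The B cell covariate gave 0, 3 and 0 for these, smooth muscle 1, 0 and 0, T cell 0, 0 and 0, and goblet cell 0, 0 and 0. The T cell and goblet covariates, total counts without scaling factors and shares of the TMM effective size were added after seeing the data. Total counts gave 7 for ZnSO4 in PBS mice, 2 for ZnSO4 in Dex mice, 10 for averaged ZnSO4 and 0 for averaged Dex, and shifted the median LFC of all genes by -0.11 for Dex in water and 0.12 for ZnSO4 in Dex mice. Leaving out 1 library gave 0 to 5 for ZnSO4 in PBS mice, 2 to 9 for averaged ZnSO4 and 0 to 3 for averaged Dex. The cause of these differences was not tested.

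The share ratio with Dex in water mice was 1.05 to 1.11 and with ZnSO4 in Dex mice 1.26 to 1.35 on leaving out 1 library, and 1.17 and 1.20 on TMM effective library size. Single LFCs turned direction under some alternatives, among them that of mt-Co2 for averaged ZnSO4 (0.23 as reported) and of mt-Nd1 for ZnSO4 in Dex mice (0.21). With the goblet covariate mt-Co2 had -0.10 for averaged ZnSO4, mt-Nd1 -0.10, mt-Co2 -0.23 and mt-Atp6 -0.0821 for ZnSO4 in Dex mice, and mt-Nd1 -0.10 and mt-Co2 -0.11 for Dex in ZnSO4 mice. With the T cell covariate mt-Co2 had -2.322e-05 for ZnSO4 in Dex mice and -0.00764 for Dex in ZnSO4 mice, and with the smooth muscle covariate mt-Nd6 had 0.00385 for Dex in ZnSO4 mice. Total counts gave mt-Rnr1 -0.00146 for Dex in water mice and mt-Nd5 -0.0173 for Dex in ZnSO4 mice. For Dex in ZnSO4 mice, leaving out 1 library gave ranges of -0.11 to 0.0917 for mt-Nd6, -0.0276 to 0.12 for mt-Nd1, -0.0276 to 0.12 for mt-Co2, -0.0341 to 0.17 for mt-Nd5 and -0.00795 to 0.19 for mt-Rnr1.

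Same-numbered libraries did not deviate together (median correlation of deviations -0.06 over 18 pairs, -0.36 to 0.46, against 0.02 over 36 pairs with different numbers). With 3 mice a group this shows no pairing by number but cannot exclude a shared cage or day. With the replicate number as a block, 0 genes were called for ZnSO4 in PBS mice and 3 for averaged ZnSO4.

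Depth limits the tRNAs, where 0 reads allow up to 3, and the 5 genes with under 100 reads a library. Reads shared with nuclear copies were not counted, and copies outside annotated transcripts were not searched. With 3 mice a group, leaving out 1 library changed many of the calls, and the number over all genes is not given beside them.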
